A study of Mus musculus with 4 samples.

Results

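The genes described here are 42 named members of the DNA replication and mitosis machinery and of the G1 control that precedes it, taken by symbol from a list of named genes that was drawn up with earlier results of these data known, out of 55536 genes with a row in each library's gene table. All 42 had a row. PolyA-selected RNA was sequenced from macrophages that had been grown from the bone marrow of C57BL/6J mice, in 4 libraries. Every library belonged to a single group: macrophages that had received lipid A at 100 ng/ml over 12 h, were then kept without it for 12 h, and were collected at 0 min of a second exposure. Lipid A is the membrane anchor of lipopolysaccharide and activates Toll-like receptor signalling; part of the labels call the agent lipoprotein A instead. The 4 libraries carry different biosample identifiers and the same donor identifier, sex and age were not collected, and no untreated or restimulated library was analysed here. Nothing says whether the replicates came from separate animals or cultures, so the SDs and p-values below measure the spread between these samples, which may be technical.

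In G1, cyclin D bound to Cdk4 or Cdk6 phosphorylates the Rb protein, E2F factors are released, and genes for origin licensing, nucleotide supply and fork proteins are transcribed. Cdc6 and Cdt1 load the ring of Mcm2 to Mcm7 on origins, and the clamp Pcna holds polymerases at the fork. Genes of mitosis are transcribed later in the cycle, and inhibitors such as Cdkn1a and Cdkn1b hold the kinases back. Macrophages are known to leave the cycle when they are activated by lipopolysaccharide, and resting macrophages can re-enter it.

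Gene-level expected counts summed to 25594340 and 27384162 in replicates 1 and 2 and to 48875472 and 57126810 in replicates 3 and 4. The deposited notes list 6 read files for each of the former and 4 for each of the latter. Mitochondrial genes took 0.778, 1.16, 3.34 and 3.00% of these expected counts in replicates 1 to 4. Levels below are in TPM, a relative level within a library, corrected for transcript length. All 10 macrophage markers were present, with a median of 613 TPM and Lyz2 highest at 9726 TPM. Among the markers of other cells, 8 of 10 for neutrophils and their precursors, 6 of 7 for stem and progenitor cells, 5 of 6 for B cells, and all 6 measured for each of erythroid, T and NK, mast and basophil, and fibroblast cells were below 1 TPM. These are bulk samples, in which fewer cycling cells and less RNA per cycling cell cannot be told apart.

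Promoters of the members, which were taken by symbol, were searched for motifs already known from genes of these kinds. Of the 42 genes, 33 matched a promoter in RefSeq (GRCm38.p6), a window from 250 bases before to 50 bases after the annotated start. E2F words (TTTCCCGC, TTTCGCGC, TTTGCCGC and TTTGGCGC, either strand) are sites of the kind bound by E2F factors. They occurred in 6 of 9 licensing and fork genes (66.7%), in 0 of 4 nucleotide supply genes and in 0 of 8 mitosis genes. Of the 27025 genes of the table, 2.6% held one. The cell cycle genes homology region, CHR (TTTGAA or TTCGAA, either strand), and the CCAAT box (CCAAT, either strand) are elements known from promoters of mitotic genes. Both together occurred in 7 of 8 mitosis genes (87.5%) and in 2 of 3 matched genes of cyclins A and B with Cdk1. They occurred together in 3 of 9 licensing and fork genes (33.3%) and in 8.61% of all genes. Taken singly, CHR words occurred in 21.7% and CCAAT in 41.1% of all genes. A match is a string in the window and not a bound site.

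The 250 bases before the start are shown, 5′ to 3′ on the strand of the gene with motif letters in capitals, for the most abundant members of the licensing and fork group and of the mitotic groups, to show how the searched motifs lie in single promoters. All are on the minus strand: Pcna at chr2:132253181-132253430, Mcm6 at chr1:128359706-128359955, Cdk1 at chr10:69352913-69353162 and Top2a at chr11:99024190-99024439.
Pcna: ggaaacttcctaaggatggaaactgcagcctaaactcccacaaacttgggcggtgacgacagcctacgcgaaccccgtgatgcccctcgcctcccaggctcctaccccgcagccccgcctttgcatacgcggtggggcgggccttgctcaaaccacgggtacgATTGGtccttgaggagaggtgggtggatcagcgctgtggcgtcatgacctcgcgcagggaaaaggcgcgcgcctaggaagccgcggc
Mcm6: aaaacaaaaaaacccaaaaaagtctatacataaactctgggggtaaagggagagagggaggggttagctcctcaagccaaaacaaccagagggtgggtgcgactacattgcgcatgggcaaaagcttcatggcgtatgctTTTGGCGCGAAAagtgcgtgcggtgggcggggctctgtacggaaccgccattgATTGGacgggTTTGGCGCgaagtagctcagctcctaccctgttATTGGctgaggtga
Cdk1: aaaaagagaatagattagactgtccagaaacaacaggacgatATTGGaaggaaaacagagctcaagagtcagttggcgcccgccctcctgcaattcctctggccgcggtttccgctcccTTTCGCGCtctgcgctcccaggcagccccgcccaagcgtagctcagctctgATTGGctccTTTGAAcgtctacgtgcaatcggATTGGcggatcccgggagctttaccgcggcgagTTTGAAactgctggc
Top2a: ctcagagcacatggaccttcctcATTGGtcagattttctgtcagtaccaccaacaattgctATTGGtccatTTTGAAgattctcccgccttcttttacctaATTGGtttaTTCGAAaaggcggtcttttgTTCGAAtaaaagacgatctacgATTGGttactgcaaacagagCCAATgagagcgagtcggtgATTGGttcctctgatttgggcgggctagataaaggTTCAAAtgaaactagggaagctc
In Mcm6 the E2F words begin 110, 106 and 47 bases before the start, the first pair overlapping on opposite strands, and CCAAT boxes begin 57 and 14 bases before it. Pcna holds a CCAAT box 87 bases before the start and none of the searched E2F words. The Cdk1 window holds all of these motifs: an E2F word at 131, CHR words at 71 and 15, and CCAAT boxes at 208, 80 and 48 bases before the start. Top2a, the topoisomerase that untangles sister chromatids, holds 4 CHR words and 6 CCAAT boxes and no searched E2F word.

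**Figure D1:**
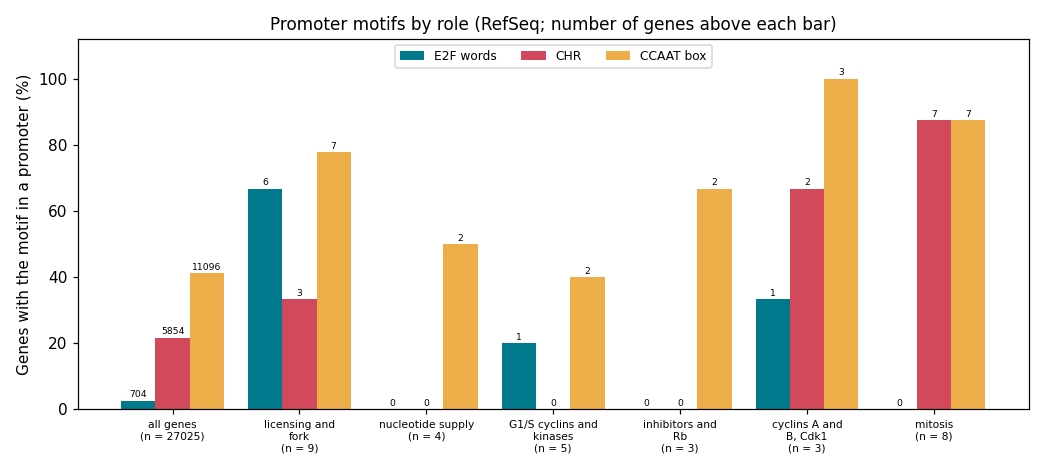
Share of genes (percent, y axis) with E2F words, CHR words or CCAAT boxes in a RefSeq promoter, for all 27025 genes and for the role groups (x axis, with the number of matched genes; the transcription factor group, with 1 matched gene, is left out); numbers above bars are genes. E2F words are in 6 of 9 licensing and fork genes, and CHR words in 7 of 8 mitosis genes.

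The 42 genes were expressed at uneven levels. On the TPM scale 39 had a mean of at least 1 TPM, 21 at least 10 TPM and 2, Pcna and Cdkn1a, at least 100 TPM. Their median was 9.99 TPM, against 17.5 TPM over the 10292 protein-coding nuclear genes with a mean of at least 1 TPM. The median was highest in the inhibitors and Rb (22.0 TPM over 4 genes), near 13.2 TPM in the 11 licensing and fork genes and 13.2 TPM in the 8 G1/S cyclins and kinases, 4.62 TPM in the 4 nucleotide supply genes, 2.27 TPM in the 9 mitosis genes and 1.68 TPM in cyclins A and B with Cdk1. Genes of G1 and of licensing thus stood above most genes of mitosis in level. When the 42 are ordered by mean, the ranges over the 4 libraries overlapped in 40 of 41 neighbouring pairs; the exception was the step from Cdkn1a down to Ccnd1.

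**Figure D2:**
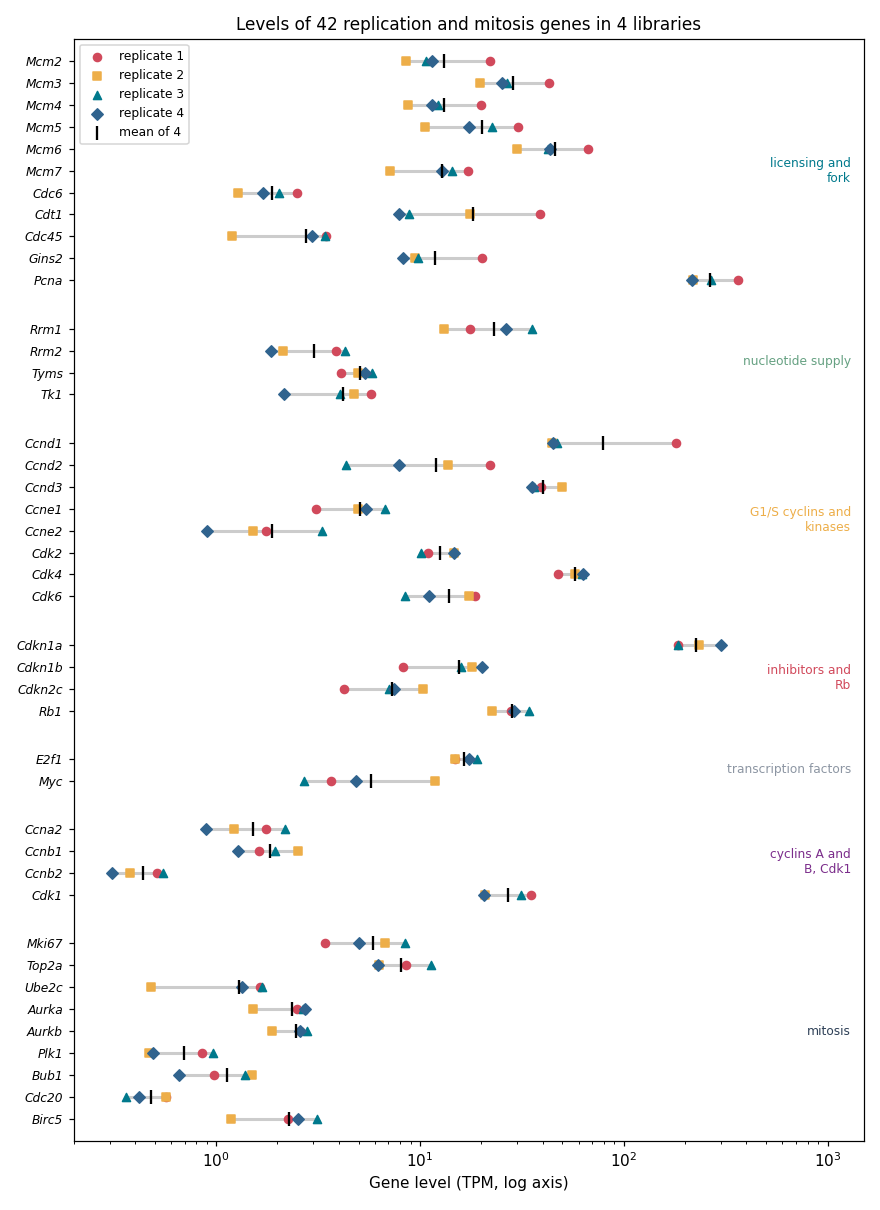
Levels of the 42 genes (TPM, log x axis) in each of the 4 libraries, grouped by role (y axis); coloured symbols are replicates, black ticks the mean and grey lines the range. Pcna and Cdkn1a lie above 100 TPM in every library, and most mitosis genes lie below 10 TPM. In these RSEM-layout levels replicate 1 is the highest library for each of the 11 licensing and fork genes.

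In the RSEM-layout gene tables, which give the levels printed here, the licensing and fork genes were all highest in replicate 1. In the kallisto-layout tables Pcna (257, 159, 294 and 243 TPM), Mcm7, Cdc6 and Cdc45 were highest in replicate 3 instead, and the rest of the group in replicate 1. Pcna, the sliding clamp, had 362, 218, 268 and 215 TPM in replicates 1 to 4, 266 ± 68.3 TPM (SD, n = 4), the highest mean of the 42. Mcm6, the highest of the helicase subunits, had 66.9, 30.1, 42.6 and 43.6 TPM, and Mcm2, among the lowest, had 22.0, 8.55, 10.7 and 11.5 TPM. Replicate 2 was the lowest library for all 6 helicase subunits and replicates 3 and 4 lay between. Means of the 6 subunits ran from 12.9 to 45.8 TPM.

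Of the 2 loaders, Cdt1 was the more abundant and the more variable. Cdt1 had 38.9, 17.6, 8.85 and 7.90 TPM, with replicates 1 and 2 both above 3 and 4, whereas Cdc6, the ATPase that recruits it, had 2.50, 1.28, 2.04 and 1.69 TPM. Cdc45 and Gins2, parts of the active helicase complex, had 3.47, 1.19, 3.43 and 2.96 TPM and 20.1, 9.48, 9.74 and 8.30 TPM. Replicate 2 was lowest for Cdc6 and Cdc45, and replicate 1 stood alone above the other 3 for Gins2.

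Nucleotide supply genes were lower. Rrm1, the large subunit of ribonucleotide reductase, had 17.7, 13.1, 35.5 and 26.4 TPM and was higher in replicates 3 and 4 than in 1 and 2. Its small subunit Rrm2, the one that varies with S phase, had 3.87, 2.12, 4.29 and 1.86 TPM, high in replicates 1 and 3. Rrm1 exceeded Rrm2 in all 4 libraries, by 2.54 ± 0.60 (SD, n = 4) in log2(TPM + 1). Tk1, thymidine kinase, had 5.78, 4.72, 4.06 and 2.16 TPM and Tyms, thymidylate synthase, 4.12, 4.94, 5.83 and 5.39 TPM, both under 6 TPM in every library.

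Among the cyclins and kinases of G1, cyclin D1 separated 1 library from the rest. Ccnd1 had 180.4, 44.5, 47.0 and 45.1 TPM: replicate 1 was 3.84 times the next library, and the other 3 lay within 2.42 TPM of each other. Ccnd2 had 22.0, 13.7, 4.35 and 7.86 TPM, with both of replicates 1 and 2 above 3 and 4, and Ccnd3 had 39.4, 49.6, 36.4 and 35.6 TPM. In replicate 1 Ccnd1 was thus the leading D cyclin by far, while in replicate 2 its level was below that of Ccnd3 and in replicates 3 and 4 above it.

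The D cyclins act with Cdk4 and Cdk6, and E cyclins with Cdk2. Cdk4 had 47.4, 57.5, 62.1 and 62.9 TPM, among the steadiest of the 42 with a coefficient of variation of 12.4%, and Cdk6 had 18.6, 17.4, 8.47 and 11.1 TPM. Cdk4 exceeded Cdk6 in 4 of 4 libraries, by 2.03 ± 0.66 in log2(TPM + 1). Cdk2 had 11.0, 14.6, 10.1 and 14.7 TPM. The E cyclins were low: Ccne1 had 3.09, 4.95, 6.77 and 5.46 TPM and Ccne2 1.76, 1.52, 3.32 and 0.90 TPM, and Ccne1 was the higher in 4 of 4 libraries.

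The inhibitor Cdkn1a, which binds cyclin-Cdk complexes and Pcna, was the second highest of the 42, with 184, 233, 185 and 299 TPM in replicates 1 to 4 and 225 ± 54.3 TPM (SD, n = 4). Cdkn1b, an inhibitor typical of quiescent cells, had 8.24, 18.0, 15.9 and 20.3 TPM, and Cdkn2c, an inhibitor of Cdk4 and Cdk6, 4.25, 10.3, 7.04 and 7.47 TPM. Replicate 1 was the lowest library for all 3 inhibitors, where it was the highest for Ccnd1 and, in the RSEM-layout tables, for the licensing genes. Cdkn1a exceeded Cdkn1b by 3.80 ± 0.38 in log2(TPM + 1). Rb1, the pocket protein, had 27.9, 22.4, 34.4 and 29.0 TPM and its partner factor E2f1 14.8, 14.8, 19.0 and 17.4 TPM. E2f1 was below Rb1 in 4 of 4 libraries (-0.74 ± 0.13 in log2(TPM + 1)). Myc, a growth-promoting factor, had 3.66, 11.8, 2.69 and 4.83 TPM, high in replicate 2.

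Cyclins A and B were near 1 TPM. Ccna2, which serves S phase and early mitosis, had 1.75, 1.22, 2.18 and 0.89 TPM, Ccnb1, the main mitotic cyclin, 1.62, 2.52, 1.95 and 1.28 TPM, and Ccnb2 0.51, 0.38, 0.55 and 0.31 TPM. The last rests on 11, 9, 24 and 16 expected counts. Their kinase Cdk1 (chr10:69335146-69352938, mm10, minus strand) stood far above them with 35.2, 20.8, 31.4 and 20.7 TPM, and exceeded Cdk2 in 4 of 4 libraries. Most of that Cdk1 level lay on a transcript that is not annotated as coding, described below.

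The 9 genes of mitosis were all below 12 TPM in every library. Top2a had 8.57, 6.33, 11.3 and 6.19 TPM and Mki67, the gene of the proliferation antigen Ki-67, 3.43, 6.75, 8.40 and 5.04 TPM. Both were highest in replicate 3, and in Mki67 replicate 1 was lowest. Aurka and Aurkb, kinases of the spindle poles and of the chromosomal passenger complex, had 2.50, 1.51, 2.67 and 2.72 TPM and 2.57, 1.88, 2.79 and 2.58 TPM and could not be ordered (mean log2 ratio -0.05 ± 0.11, exact two-sided sign-flip permutation p = 0.5, adjusted 0.5). Birc5, the survivin subunit of the same complex, had 2.26, 1.18, 3.14 and 2.51 TPM. Ube2c and Cdc20, which serve the anaphase-promoting complex, had means of 1.29 and 0.48 TPM, and the checkpoint and mitotic kinases Bub1 and Plk1 1.13 and 0.695 TPM. Plk1, Cdc20 and Ccnb2 are the 3 members with a mean below 1 TPM.

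Related members were compared within each library in 12 pairs. In 10 of them the same gene was the higher in all 4 libraries. With 4 libraries the exact two-sided sign-flip permutation test allows no p below 2 in 16, so none of the 12 could pass 0.05; these 10 pairs reached that minimum, with a Benjamini-Hochberg adjusted p of 0.15. Ccnd1 exceeded Ccnd3 in 3 of 4 libraries, by 0.68 ± 1.02 in log2(TPM + 1) (permutation p = 0.25, adjusted 0.273), and by 0.18 without replicate 1. Ccnd1 exceeded Ccnd2 by 2.54 ± 0.69, and Ccnb1 exceeded Ccnb2 by 0.97 ± 0.26.

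For 3 members a single transcript of another biotype than protein_coding took at least 20% of the gene's TPM in every library: Cdk1, Tyms and Mcm3. That is 3 of the 39 members with a mean of at least 1 TPM (7.69%), against 807 of 10292 protein-coding nuclear genes (7.84%), a share near the background. The median member had 1.71% of its TPM on other biotypes, against 3.66% over all such genes. The leading transcript was protein_coding for 40 of 42 members; the exceptions were Cdk1 and Tyms.

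Cdk1-204 is annotated as a retained intron of 475 bases (chr10:69345005-69352910, mm10, minus strand). It took 51.8, 56.8, 66.6 and 67.0% of Cdk1 TPM in replicates 1 to 4 in the RSEM-layout tables and 44.2, 42.7, 59.4 and 59.4% in the kallisto-layout tables. By expected counts its share was 18.8, 21.7, 31.8 and 31.6%, since a short transcript needs few reads for a high TPM. On protein_coding transcripts alone Cdk1 had 17.0, 8.97, 10.5 and 6.81 TPM, which leaves it above cyclins A and B in every library. On that basis Cdk2 had 9.79, 11.7, 8.04 and 11.3 TPM, so it was above Cdk1 in replicates 2 and 4 and below it in replicates 1 and 3. The mean log2(TPM + 1) ratio of Cdk2 over Cdk1 was then -0.02, against -1.02 ± 0.63 (SD, n = 4) on whole genes. Cdk1-204 ends at chr10:69345005, whereas the main coding transcript Cdk1-202 (1253 bases) runs on to chr10:69338324. Over its own span, apart from 7 bases at its start, Cdk1-204 differs from Cdk1-202 in an exon it lacks (chr10:69351592-69351682). It also differs in the 56 bases with which it runs on into the intron. The boundary, at chr10:69345031-69345090, is shown because these bases are in no coding transcript of the gene, with the intronic bases in capitals.
Cdk1-204: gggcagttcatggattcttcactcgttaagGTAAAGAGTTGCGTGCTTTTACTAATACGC
Reads over most of the length of Cdk1-204 fit the coding transcript as well, so its share depends on how the quantifier divides them.

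Tyms-205, annotated as a target of nonsense-mediated decay (618 bases, chr5:30063236-30073552, mm10, minus strand), took 25.7, 50.7, 67.8 and 65.7% of Tyms TPM, and 29.7, 52.9, 63.2 and 67.8% in the kallisto-layout tables. It has no base outside the coding transcript Tyms-201 and rests on 6.58, 16.7, 49.1 and 50.7 expected counts. In replicate 1 the deposited interval of its TPM runs from 0.0126 to 2.29. On coding transcripts alone Tyms had 0.72, 0.40, 0.83 and 1.10 TPM. Mcm3-205, a retained intron of 607 bases (chr1:20803165-20804933, mm10, minus strand) with 26 bases in no coding transcript, took 36.0, 24.5, 27.4 and 30.8% of Mcm3 TPM in the RSEM-layout tables but 14.6, 25.0, 0 and 2.56% in the kallisto-layout tables. The 2 quantifications thus gave like shares for Cdk1 and Tyms and unlike shares for Mcm3.

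**Figure D3:**
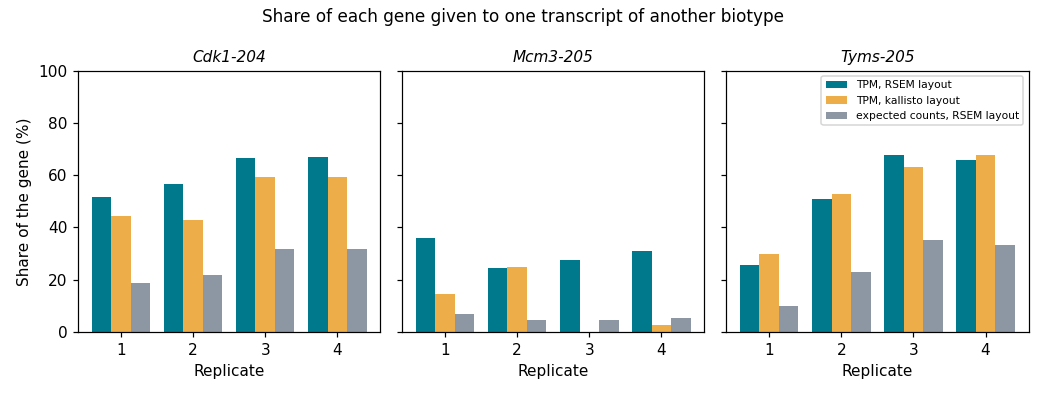
Share of the gene (percent, y axis) given to Cdk1-204, Tyms-205 and Mcm3-205 in each replicate (x axis), by TPM in the RSEM and kallisto layouts and by expected counts. For Cdk1-204 both TPM shares exceed 40% in every library while the count shares stay below 32%; for Mcm3-205 the kallisto share is 0 in replicate 3.

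Rrm1-202 was looked at after its values were seen, because the Rrm1 level depends on it. This transcript, annotated as a decay target (747 bases, chr7:102463722-102468682, mm10, plus strand), took 10.6, 13.6, 48.0 and 24.8% of Rrm1 TPM and 14.6, 20.8, 45.9 and 22.7% in the kallisto-layout tables, highest in replicate 3 in both. Its 14 bases in no coding transcript lie before an exon, and are shown in capitals within the spliced sequence between chr7:102465784 and chr7:102466893.
Rrm1-202: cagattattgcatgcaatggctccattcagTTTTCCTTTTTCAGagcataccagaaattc
Coding transcripts of Rrm1 had 15.5, 10.9, 18.3 and 19.6 TPM, so replicates 3 and 4 were above 1 and 2 also without it.

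The labels give 1 group, so the only contrast between libraries is the number of read files: replicates 3 and 4 were set against 1 and 2 with edgeR's quasi-likelihood test on rounded expected counts, a comparison of libraries and not of conditions. At a Benjamini-Hochberg adjusted p under 0.05 it called 729 of 13264 tested genes (5.50%), 250 higher (1.88%) and 479 lower (3.61%) in replicates 3 and 4. All 42 members were tested and 0 were called, with 3 at an unadjusted p under 0.05. DESeq2 called those same 3 members, Cdt1, Ccnd2 and Ccnd3, all lower, where it called 8.24% of all genes lower. The median log2 fold change of the members was -0.11, against -0.02 over all tested genes, with 17 members positive and 25 negative. That lean changed with the libraries used. Without replicate 1 the median of the members was 0.32, with 31 members positive and 11 negative. Without replicate 2 it was -0.35, with 10 positive and 32 negative. Without replicate 3 it was -0.30, with 12 positive and 30 negative. Without replicate 4 it was -0.002, with 21 positive and 21 negative. With limma on log2(TPM + 1) the median was 0.01, with 21 of each sign.

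Ccnd2 had the lowest adjusted p of the members, with a log2 fold change of -1.64 (SE 0.38, edgeR adjusted p = 0.0635, DESeq2 adjusted p = 4.9e-04). Cdt1 was at -1.78 (SE 0.44, edgeR adjusted p = 0.0699, DESeq2 adjusted p = 7.6e-04), and Ccnd3 at -0.56 (SE 0.15, edgeR adjusted p = 0.0778, DESeq2 adjusted p = 0.0467). Ccnd1 was at -1.36 with an SE of 0.67 (edgeR adjusted p = 0.251), the largest SE among the G1/S genes. In these counts all 8 G1/S cyclins and kinases had negative values and 8 of the 9 mitosis genes positive ones, none past the threshold; the median over the G1/S group was -0.33 and over the mitosis group 0.29. On the TPM scale (limma on log2(TPM + 1)) only 5 of the 8 G1/S genes were negative. Ccne1, Ccne2 and Cdk4 were positive there, at 0.52, 0.12 and 0.26, and mean TPM in replicates 1 and 2 against 3 and 4 was 4.02 against 6.12 for Ccne1 and 52.4 against 62.5 for Cdk4. Without replicate 1 the edgeR value of Ccnd1 was 0.26. Without replicate 2 the median of the mitosis group was -0.15, with 2 of 9 positive.

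Ranges of TPM in the pairs of libraries lay apart for 15 of 42 members, 6 of them lower in replicates 3 and 4, against 55.6% of all tested genes. Calls among the members depended on replicate 2 and on the filter on low counts. Without replicate 2, so that replicate 1 stood alone and was assumed to vary like the other libraries, edgeR called Mcm2, Cdt1, Ccnd1 and Ccnd2 lower in replicates 3 and 4, where it called 3.42% of all genes lower. Without the filter it called 5 members, Cdt1, Ccnd1, Ccnd2, Myc and Rrm1, and 11.7% of all genes.

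**Figure D4:**
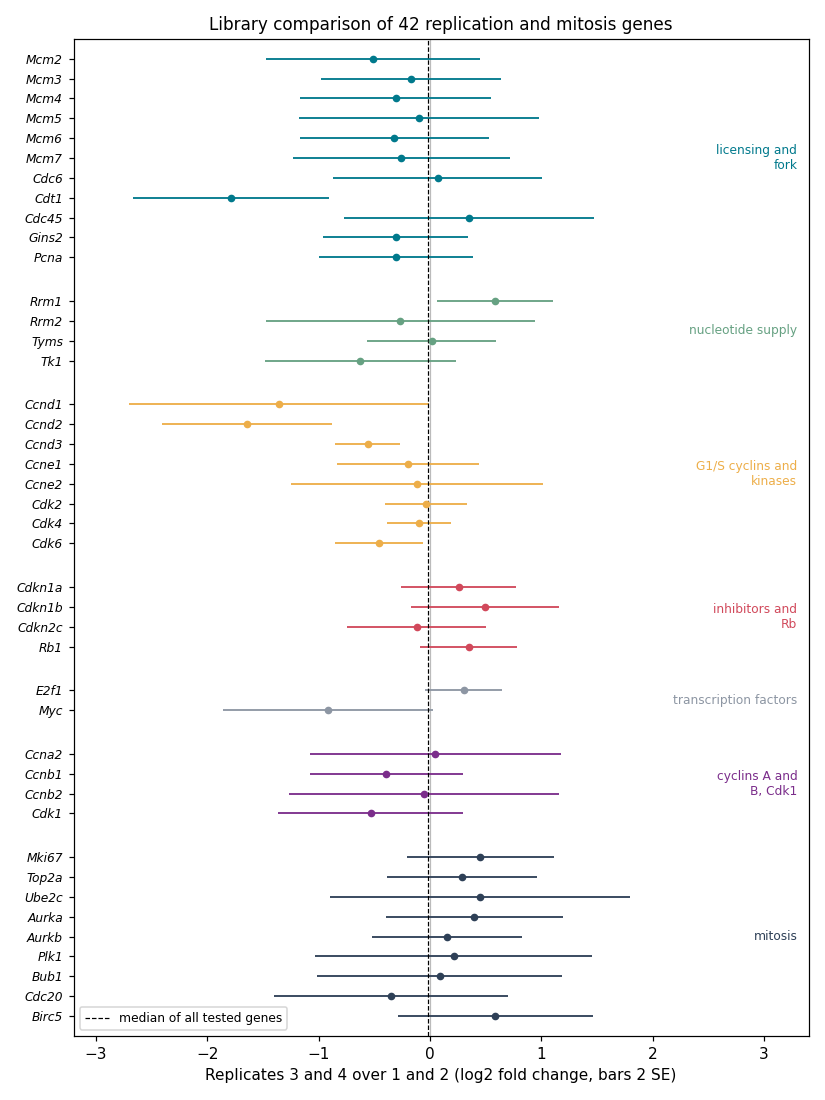
Log2 fold change of replicates 3 and 4 over 1 and 2 (x axis, edgeR) for the 42 genes by role (y axis); points are estimates, bars 2 SE, and the dashed line the median of all tested genes. Cdt1, Ccnd2 and Ccnd3 lie farthest below 0 relative to their bars, and none of the 42 has an adjusted p under 0.05.

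Other genes of the same pathway, 132 in 4 lists, were called 7 times among the 125 tested (5.6%), a share near the 5.50% over all tested genes. In the list of further replication genes 0 of 36 were called by edgeR, with 1 at an unadjusted p under 0.05, and the most abundant were Rfc2 (73.0 ± 15.1 TPM), Rpa1 (39.6 ± 4.16 TPM) and Orc4 (36.7 ± 5.74 TPM; SD, n = 4). In the list of further mitosis genes 2 of 36 tested were called (5.56%), both higher in replicates 3 and 4. Incenp, the scaffold of the chromosomal passenger complex, had 25.1, 27.4, 43.6 and 41.4 TPM (log2 fold change 0.89, SE 0.15, edgeR adjusted p = 0.0376), and Racgap1, a subunit of centralspindlin, 3.12, 3.91, 8.67 and 9.02 TPM (1.11, SE 0.20, edgeR adjusted p = 0.0401). Pttg1, securin, was the most abundant of that list at 232 ± 93.2 TPM, followed by Bub3 at 36.4 ± 3.95 TPM.

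In the list of further G1 control genes 3 of 36 tested were called (8.33%). Rbl2, a pocket protein of the Rb family, had 11.8, 16.2, 29.0 and 39.7 TPM and a log2 fold change in counts of 0.79 (SE 0.16, edgeR adjusted p = 0.0466). Chek2, a checkpoint kinase, had 7.73, 11.4, 14.6 and 16.7 TPM, and the inhibitor Cdkn2d, a relative of Cdkn2c, 13.1, 21.8, 5.86 and 4.43 TPM; Chek2 was higher (0.90, edgeR adjusted p = 0.0420) and Cdkn2d lower (-1.73, edgeR adjusted p = 0.0352) in replicates 3 and 4. Max, the partner of Myc, led that list at 268 ± 109 TPM, ahead of Mxd1 and E2f4. Of the p53 pathway genes, 2 of 17 tested were called (11.8%, where 5.50% of all tested genes were called), both lower: Bax, a pro-apoptotic protein, with 119.8, 164, 55.8 and 56.8 TPM (-1.31, edgeR adjusted p = 0.0257) and Plk3 with 3.72, 4.68, 1.15 and 1.61 TPM (-1.60, edgeR adjusted p = 0.0416). The most abundant of that list were Ccng1, a cyclin G gene, at 104 ± 17.3 TPM, Bax at 99.2 ± 52.7 TPM and the kinase gene Plk2 at 83.7 ± 22.6 TPM (SD, n = 4). With offsets for GC content and length, edgeR called 2 of these 7, Incenp and Racgap1. Of the 8 alternatives that use all 4 libraries, Racgap1 was called in 8, Rbl2, Cdkn2d and Bax in 7, Incenp and Plk3 in 5 and Chek2 in 3. Incenp was lost in all 3 limma fits (highest limma adjusted p = 0.0723), and Chek2 in those, with kallisto-layout counts and with the offsets (highest adjusted p = 0.174, by limma). When each library was left out in turn, edgeR called Bax in 2 of 4 fits (without replicate 1 or 2), Racgap1 in 1 (without replicate 2), Cdkn2d in 1 (without replicate 1) and the other 4 genes in 0, with adjusted p from 0.0293 to 0.209 over the 7 genes.

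Replicates 1 and 2, and replicates 3 and 4, have the same number of read files, and between replicates 1 and 2 the licensing genes had the largest median difference of the role groups. All 11 were higher in replicate 1 than in replicate 2, by a median of 1.10 in log2(TPM + 1), and 9 of 11 were also higher in replicate 3 than in 4, by a median of 0.16. Over all tested genes the medians were -0.19 and -0.03. Of the 42 members, 28 were higher in replicate 1 than in 2 (26.2% of all tested genes) and 30 higher in replicate 3 than in 4 (45.7%). Both held for 23 of 42 (54.8%), against 14.5% of all tested genes. With TMM-scaled counts in place of TPM, which brings the all-gene medians to 0.03 and 0.00, both held for 26 of 42 members (61.9%), against 29.4% of all tested genes.

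The opposite order, replicate 2 above 1 and 4 above 3, was found in 6 members on the TPM scale and in 41.9% of all tested genes. These 6 were the inhibitors Cdkn1a, Cdkn1b and Cdkn2c, the kinases Cdk2 and Cdk4, and Myc. With TMM scaling 5 of them kept that order, against 26.9% of all tested genes on that scale, while Cdkn2c was 0.08 higher in replicate 3 than in 4. For Cdkn1b the TPM differences were -1.04 and -0.33, and for Myc -1.46 and -0.66. Mki67, Ccnb1 and Ccne1 were among those higher in replicate 2 than in 1 and higher in 3 than in 4, on both scales. Among the other pathway lists, both differences were positive for 21 of 36 further replication genes, 13 of 38 further mitosis genes, 6 of 40 further G1 control genes and 1 of 18 p53 pathway genes. No test was made of these counts, since the ordering of libraries within a pair has no label behind it.

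**Figure D5:**
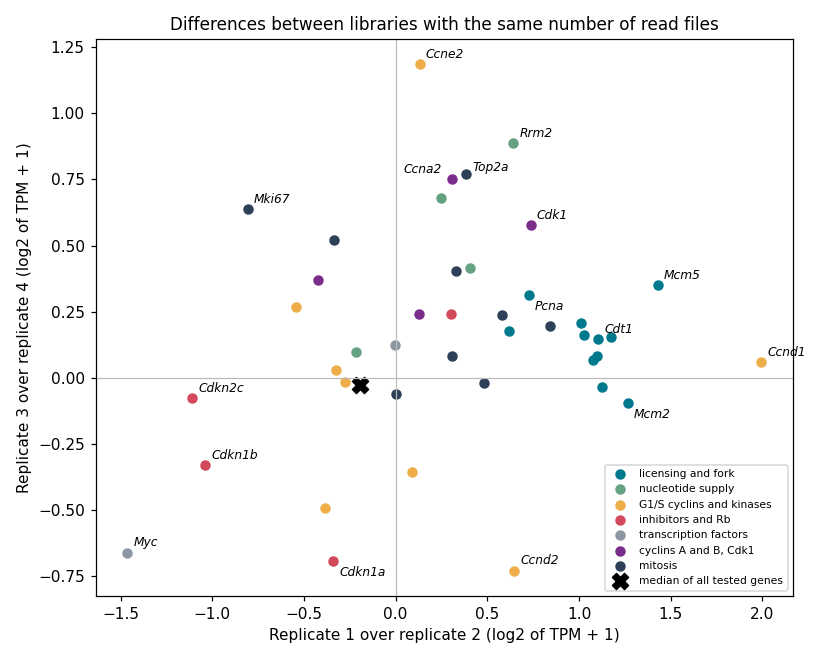
Log2 difference in TPM + 1 of replicate 1 over 2 (x axis) and of replicate 3 over 4 (y axis) for the 42 genes, coloured by role; the cross is the median of all tested genes. The 11 licensing and fork genes lie right of 0, Ccnd1 is farthest right, and Myc, Cdkn1a, Cdkn1b and Cdkn2c lie left of and below 0.

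Values that moved with these orders were found outside the members as well. The 10 markers of neutrophils and their precursors summed to 14.8, 8.43, 22.4 and 7.72 TPM in replicates 1 to 4. This sum was high in replicates 1 and 3. Ngp, a granule protein gene of immature neutrophils, had 5.15, 0.28, 9.44 and 0.59 TPM. Ltf (1.10, 0.25, 1.54 and 0.02 TPM) and Mpo (0.35, 0, 0.35 and 0.12 TPM) were also higher in replicate 1 than in 2 and in 3 than in 4. In TPM so were Elane (0.48, 0, 0.04 and 0.03) and Ctsg (0.16, 0, 0.12 and 0.1). Elane rests on 6, 0, 1 and 1 rounded expected counts and Ctsg on 2, 0, 3 and 3, the same in replicates 3 and 4. Mmp8, the highest of the list by mean, had 6.55, 6.64, 10.05 and 6.45 TPM, so its replicate 1 was not above 2. Camp (0.47, 0.65, 0.35 and 0.15 TPM) and Prtn3 (0.53, 0.61, 0.53 and 0.26 TPM) were highest in replicate 2. Ly6g and Retnlg were at 0 in all 4. Erythroid markers summed to 0.82, 0.33, 1.17 and 0.41 TPM, and T and NK markers to 0.92, 0.56, 1.45 and 0.64 TPM. Fibroblast markers summed to 0.74, 0.08, 0.85 and 0.49 TPM, so the order was not particular to the neutrophil list. B cell (3.17, 4.03, 4.46 and 3.38 TPM) and mast and basophil sums (0.28, 0.43, 0.55 and 0.28 TPM) were higher in replicate 2 than in 1. Stem and progenitor markers summed to 1.05, 2.12, 2.03 and 2.71 TPM, lowest in replicate 1, and macrophage markers to 23417, 25574, 21515 and 26419.5 TPM. The part of these cells in the differences among the members was not tested.

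Sequence copies limit some values. The annotation holds 6 pseudogenes named after members: Pcna-ps1, Pcna-ps2, Tyms-ps, Ccnb1-ps, Ccnb2-ps and Ccnd3-ps. Pcna-ps2 was given 6.09, 2.96, 3.89 and 2.10 TPM, small beside Pcna, whereas Ccnb2-ps was given 0.16, 0.18, 0.37 and 0.12 TPM against the 0.438 TPM mean of Ccnb2, so how reads were split between them bears on Ccnb2.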

How the data were processed

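The authors deposited, for each of 4 libraries, a gene table and a transcript table in RSEM layout and a transcript table in kallisto layout, made on mm10 with GENCODE M21 per the deposited notes; no program or version is stated there. Per the file headers, these hold expected counts (estimated counts in the kallisto layout), TPM and, in the RSEM layout, the deposited interval bounds of TPM. Members, role groups and companion lists were chosen with earlier results of these data known. Levels are TPM means ± SD over 4 libraries. All 42 members were named; of the other pathway genes, the 3 of highest mean in each list and those called; of transcripts, those of another biotype with at least 20% of TPM in every library.

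Expected counts were rounded and tested with edgeR 4.0.16 (quasi-likelihood test after TMM scaling, genes kept by filterByExpr at a count of at least 10, Benjamini-Hochberg over all tested genes). The edgeR fit was also run on simulated counts. DESeq2 1.42.0 on the rounded counts and limma 3.58.1 on log2 TPM were alternatives. Other alternatives were RLE size factors, no filter, kallisto-layout counts, offsets for GC content and length, and leaving out each library. Ratios used a pseudocount of 1 TPM and an exact sign-flip permutation test. Promoters came from RefSeq, transcript sequences from GENCODE.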

Additional observations from a re-analysis of the deposited data

Results flagged for a closer look

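Among the levels of the 42 members and the 12 pair ratios, 54 sets of 4 values, Dixon's criterion for a library far from the other 3 was met by 2, near the 1 in 20 that chance gives. Over all 13264 tested genes it was met by 4.91%, and by 0.505% with replicate 1 as the high library. Ccnd1 had 180.4, 44.5, 47.0 and 45.1 TPM, with replicate 1 apart (gap over range 0.982). Gins2 had 20.1, 9.48, 9.74 and 8.30 TPM, again with replicate 1 apart (0.878). On protein-coding transcripts only, Gins2 had 12.2, 7.56, 8.86 and 7.90 TPM, and the retained intron Gins2-204, looked at after its values were seen, took 35.2, 20.3, 0 and 2.65% of the gene's TPM.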

How the results depend on the processing

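The median level of the members, 9.99 TPM as reported, was 8.85 TPM from the kallisto-layout tables, 11.6 TPM when TPM was rescaled to protein-coding nuclear genes, 8.20 TPM on protein-coding transcripts only, and 8.46 to 10.3 TPM when each library was left out in turn. With the rescaled TPM the group medians became 5.34 TPM for nucleotide supply, 25.5 TPM for the inhibitors and Rb and 12.8 TPM for E2f1 and Myc; on protein-coding transcripts only, nucleotide supply was at 2.81 TPM. The number of members at 10 TPM or more stayed within 1.5 times under all 7 alternatives. The 0 members called in the library comparison became 3 with DESeq2 and 5 without a filter, and ran over 0 to 4 when each library was left out. The 7 other pathway genes called became 14, 21 and, with offsets for GC content and length, 2, with 0 to 4 when each library was left out. All calls, 729 as reported, became 1907, 2569 and 425 in the same order, with 51 to 640 when each library was left out. Fewer libraries are part of those last ranges; otherwise the cause was not tested. RLE size factors, kallisto-layout counts and limma on log2(TPM + 1) or log2(TPM + 0.1) called 0 members. Of the 12 gene pairs, the mean ratio of Aurka over Aurkb changed sign on protein-coding transcripts only, to 0.0026. No other mean ratio changed sign under an alternative, though the order of Cdk2 and Cdk1 within single libraries did on protein-coding transcripts. The share on other biotypes, 60.6% for Cdk1, 33.8% for Mcm3 and 85.0% for Tyms, was 26.0%, 6.82% and 59.8% by expected counts, and 11.4% for Mcm3 and 76.0% for Tyms in the kallisto-layout tables. No paired analysis was possible because all 4 libraries belong to 1 group. Depth limits Ccnb2, Cdc20, Ube2c and Plk1 most, which rest on at most 65 expected counts in a library.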
